A study of Mus musculus with 9 samples.

Results

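The genes described here encode carriers that bring iron, amino acids and glucose into the cell: Tfrc, Slc3a2, Slc7a5, Slc1a5, Slc7a1, Slc7a11, Slc38a2 and Slc2a1. They were chosen by name, and every probe annotated to them was read on 9 Illumina bead arrays. Of the 8 genes, 7 were among the 19057 genes with annotated probes, with 19 probes in all among the 45281 probes of an array, and each of the 7 had a probe above noise. Slc7a5 was not analysed here, since no probe is annotated to it in the table used. The arrays held RNA of primary B lymphocytes of the spleen, taken from C57BL/6 mice aged 8 weeks, with no genetic change named. Cells were untreated, or were exposed to an F(ab')2 antibody against IgM, which crosslinks the antigen receptor, for 1 h or 2 h, with 3 arrays in each group. The protocol gives 2.5 µg/ml of the antibody. IL-4 (5 ng/ml) and CD40L (200 ng/ml) are listed there too, with no statement of which arrays received them, and the design text speaks of 3 h where the sample labels have 1 h and 2 h. Whether arrays of 1 label stem from different animals or cultures is not stated, so p-values measure only the spread between these arrays, which may be technical.

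Resting B cells are small and take up few nutrients, and a cell that grows after antigen receptor engagement needs iron, amino acids and glucose from outside. Transferrin-bound iron enters through the transferrin receptor encoded by Tfrc, a classical surface marker of activated lymphocytes. Slc3a2 encodes the heavy chain CD98hc, which carries light chains to the membrane, among them the product of Slc7a5, an exchanger of large neutral amino acids, and that of Slc7a11, which takes up cystine in exchange for glutamate. Slc1a5 and Slc38a2 carry glutamine and other small neutral amino acids, Slc7a1 carries arginine and lysine, and Slc2a1 encodes the glucose carrier GLUT1. In mammalian cells MYC is known to raise several of these genes, ATF4 raises amino acid transporters when amino acids are scarce, and the hypoxia factor HIF1A raises Slc2a1 and Tfrc.

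The upstream sequences of 4 members are shown because their regulators are described below: Tfrc, Slc3a2 and Slc2a1 varied widely between arrays, and Slc7a11 was the member whose window held the amino acid response letters. Each stretch is the 250 bases before an annotated transcript start, from RefSeq on GRCm38.p6, 5′ to 3′ on the strand of the gene. Promoter windows, from 250 bases before to 50 after a start, were matched for 6 of the 8 members, with 2 windows each for Tfrc and Slc7a1. Slc7a5 and Slc1a5 had none, so Slc1a5, which also varied widely between arrays, is not shown. Capitals mark matches on either strand to TGATGNAAN (amino acid response) or ACGTG (core of the hypoxia response, also contained in the E-box CACGTG). The Tfrc stretch lies before the downstream one of its starts, at chr16:32608872-32609121 on the plus strand. That of Slc3a2 is at chr19:8713898-8714147 on the minus strand, that of Slc2a1 at chr4:119108495-119108744 on the plus strand, and that of Slc7a11 at chr3:50443614-50443863 on the minus strand.
Tfrc: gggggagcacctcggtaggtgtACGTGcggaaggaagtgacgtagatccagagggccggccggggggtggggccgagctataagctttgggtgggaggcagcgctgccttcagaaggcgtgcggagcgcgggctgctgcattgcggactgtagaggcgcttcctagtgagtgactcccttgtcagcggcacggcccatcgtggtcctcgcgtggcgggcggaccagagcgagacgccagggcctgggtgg
Slc3a2: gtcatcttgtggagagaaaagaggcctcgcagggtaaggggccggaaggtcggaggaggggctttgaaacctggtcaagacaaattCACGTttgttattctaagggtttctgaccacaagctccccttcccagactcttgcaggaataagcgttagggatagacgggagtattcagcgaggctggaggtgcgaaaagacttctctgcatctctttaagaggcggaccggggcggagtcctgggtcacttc
Slc2a1: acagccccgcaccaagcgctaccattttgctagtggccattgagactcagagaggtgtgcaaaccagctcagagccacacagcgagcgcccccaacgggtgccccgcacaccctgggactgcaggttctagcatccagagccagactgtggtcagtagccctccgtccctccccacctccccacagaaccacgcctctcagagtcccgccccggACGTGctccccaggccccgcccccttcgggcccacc
Slc7a11: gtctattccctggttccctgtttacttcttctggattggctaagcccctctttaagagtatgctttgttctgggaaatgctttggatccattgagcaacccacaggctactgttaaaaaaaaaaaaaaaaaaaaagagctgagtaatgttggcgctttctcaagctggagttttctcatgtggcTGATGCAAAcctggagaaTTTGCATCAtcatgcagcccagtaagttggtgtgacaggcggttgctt

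The Slc7a11 stretch held the amino acid response letters at 2 places, once on each strand, against 3.95% of all 32851 promoter windows with at least 1 match. Tfrc, Slc3a2 and Slc2a1 each held ACGTG, as did 19.6% of all windows. The E-box CACGTG, the letters that MYC and MAX bind, was in 0 of the members' 8 windows and in 7.15% of all windows. The antioxidant response letters TGACNNNGC were in 1 window of Slc7a1 and that of Slc38a2, against 12.4% of all windows. A match describes letters and not a bound site, and a missing match says only that these letters are not in the window.

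Intensities below are the deposited ones, on a linear scale, and the noise threshold was 6.44 on the median array. Differences are on the log2(intensity + 50) scale, which understates the change of dim genes. They come from a limma fit with 1 mean per group to all 9 arrays and 14640 features, adjusted over all features by the Benjamini-Hochberg method and called at an adjusted p under 0.05. Among the B cell markers measured, 6 in all, Cd74 was at 20691 to 24649.7 and Cd79b at 2449.7 to 9360.0 over the arrays and Pax5 at most 15.9. The arrays labelled replicate 2 stood apart from others of their label. Over all features, the deviations of arrays from their group means correlated at 0.68 and 0.69 between untreated replicate 2 and 2 h replicates 1 and 3, at 0.80 and 0.58 between 2 h replicate 2 and untreated replicates 1 and 3, and at -0.79 between untreated replicate 2 and 2 h replicate 2. These are across features, which are not independent replicates, and deviations within a group sum to 0. Whether the untreated and 2 h arrays numbered 2 bear the right labels was not tested, the deposited labels were kept, and every group difference below rests on them.

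Tfrc, the transferrin receptor gene (chromosome 16, 32608896 to 32632794 on GRCm38.p6), had the widest span of the members on the log2(intensity + 50) scale. Its intensities were 408, 2475 and 463 on untreated replicates 1, 2 and 3, 824, 3941 and 1018 on those of 1 h and 2357, 393 and 2184 on those of 2 h. The highest array was 1 h replicate 2, the lowest was 2 h replicate 2, and the groups overlapped. Untreated replicate 2 was 5.68 times the mean of the other untreated arrays, 1 h replicate 2 was 4.28 times that of the other 1 h arrays, and the other 2 h arrays averaged 5.77 times 2 h replicate 2. The log2 level spanned 3.17 over the 9 arrays, against a median span of 0.62 over all features. A second probe of Tfrc gave 321, 1957 and 313 on the untreated arrays, 720.3, 3292 and 918 on those of 1 h and 2069, 339 and 1713 on those of 2 h, with the same array highest and the same 3 arrays lowest.

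Slc2a1, the GLUT1 gene (chromosome 4, 119108745 to 119137330), had intensities of 409, 1245 and 365 on the untreated arrays, 827, 968 and 958 on those of 1 h and 987, 519.6 and 999.9 on those of 2 h, from a single probe. Its 1 h arrays lay close together, above untreated replicates 1 and 3 and below untreated replicate 2. Untreated replicate 2 was 3.22 times the mean of the other untreated arrays, and the other 2 h arrays averaged 1.91 times 2 h replicate 2.

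Slc3a2, the heavy chain gene (chromosome 19, 8706882 to 8723369), was dim, with intensities of 15.0, 56.3 and 4.70 on the untreated arrays, 43.8, 72.0 and 30.1 on those of 1 h and 84.2, 14.4 and 117 on those of 2 h, also from a single probe. Untreated replicate 3 was below noise and the other 8 arrays were above it. The highest values were on 2 h replicates 3 and 1. The other 2 h arrays averaged 6.99 times 2 h replicate 2.

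**Figure D1:**
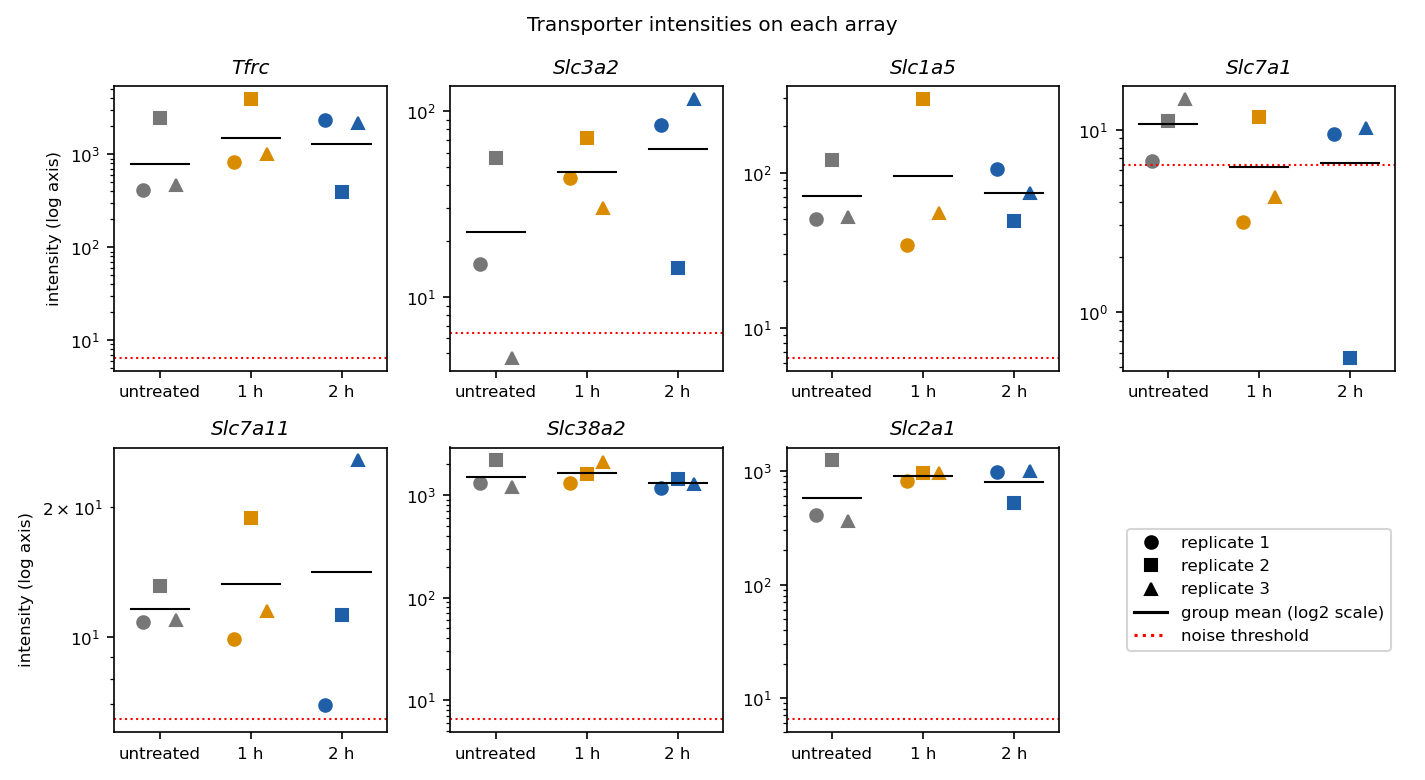
Intensity of the 7 measured transporter genes on each array by labelled group (log axis), with the replicate number shown by the symbol, the group mean by a line and the noise threshold of 6.44 dotted. For Tfrc, replicate 2 lies above the other arrays of its label in the untreated group (2475) and at 1 h (3941) and below them at 2 h (393).

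Slc1a5, a glutamine carrier gene (chromosome 7, 16781334 to 16798274), was set apart by 1 array. Its intensities were 50.1, 121 and 52.1 on the untreated arrays, 34.1, 297 and 55.2 on those of 1 h and 105, 48.8 and 74.1 on those of 2 h. The value on 1 h replicate 2 was 6.65 times the mean of the other 1 h arrays. Of its 5 probes 3 were kept, and all 3 were highest on 1 h replicate 2 (297, 274 and 243) and next highest on untreated replicate 2. The other 2 probes were above noise on 0 arrays.

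Slc38a2, a sodium-coupled carrier gene for small neutral amino acids (chromosome 15, 96687392 to 96699728), was bright on every array. Its brightest probe gave 1319, 2181 and 1203 on the untreated arrays, 1304, 1619 and 2094 on those of 1 h and 1181, 1436 and 1294 on those of 2 h, highest on untreated replicate 2 and 1 h replicate 3. A second probe ran differently, with 311, 441 and 251 on the untreated arrays, 402, 436 and 461 on those of 1 h and 465, 417 and 595 on those of 2 h. With every kept probe as a feature, the log2 difference of 2 h from untreated was -0.21 ± 0.24 (SE) for the brightest probe (limma adjusted p = 0.924) and 0.51 ± 0.19 for the second (adjusted p = 0.924), so the sign depended on the probe. The dimmest kept probe reached 15.3 at most.

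Slc7a1 and Slc7a11 were close to noise, which limits any statement on them. Slc7a1, the arginine and lysine carrier gene (chromosome 5, 148327410 to 148399904), had 6.72, 11.1 and 14.8 on the untreated arrays, 3.14, 11.8 and 4.27 on those of 1 h and 9.54, 0.562 and 10.2 on those of 2 h. It was above noise on 6 of the 9 arrays, with 1 h replicates 1 and 3 and 2 h replicate 2 below, and its second probe was above noise on 0 arrays. Slc7a11, the cystine carrier gene whose upstream stretch holds the amino acid response letters (chromosome 3, 50364936 to 50499087), had 10.8, 13.2 and 10.9 on the untreated arrays, 9.92, 18.9 and 11.5 on those of 1 h and 6.95, 11.3 and 25.7 on those of 2 h. Of its 5 probes 2 were kept, and the second reached 8.46 at most.

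**Figure D2:**
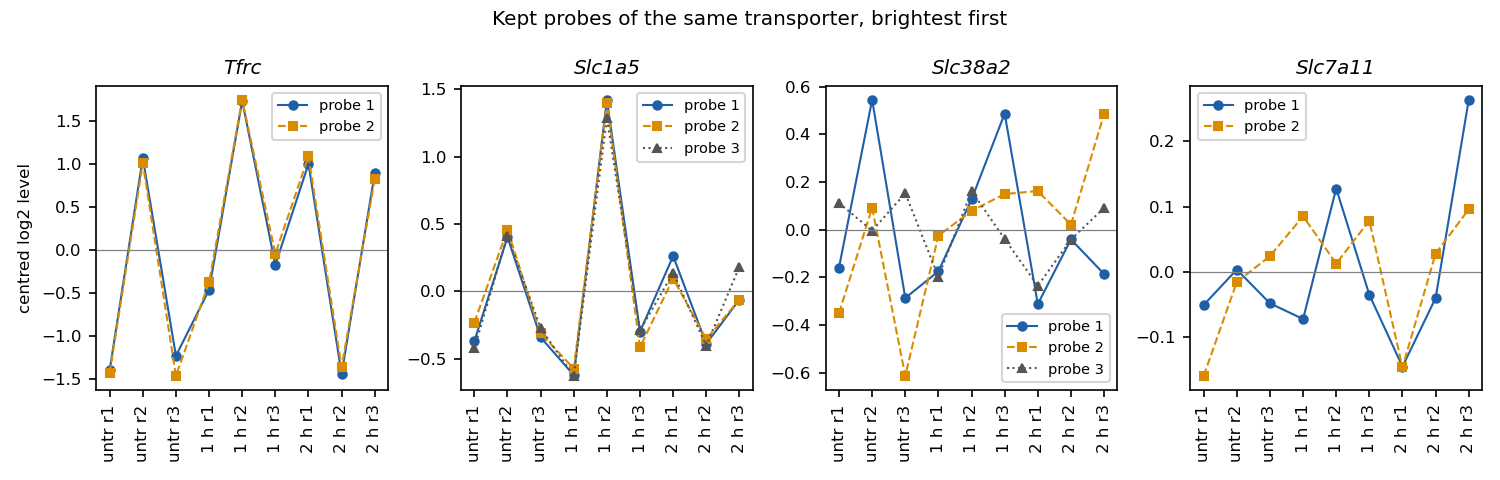
Centred log2(intensity + 50) level of each kept probe on each of the 9 arrays, for the 4 members with several kept probes. The 2 Tfrc probes and the 3 Slc1a5 probes follow each other over the arrays, while the brightest and second Slc38a2 probes differ in sign at 2 h against untreated (-0.21 and 0.51).

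At 1 h, 6 of the 7 measured members had a higher mean than untreated and 1 a lower one, where 48.6% of all features had a higher mean. Of the 7, 0 were called by limma, as were 0% of all features, and 0 had an unadjusted p under 0.05, against 1.3%. The median log2 difference was 0.27 over the members and -0.0047 over all features. Tfrc had 0.88 ± 0.92 (SE, n = 3 arrays per group, limma adjusted p = 1.00), with a 95% interval from -1.23 to 3.00. The interval of Slc2a1 ran from -0.36 to 1.60 around 0.62 ± 0.43, and that of Slc3a2 from -0.45 to 1.30 around 0.43 ± 0.38. Slc1a5 had 0.27 ± 0.50, Slc38a2 0.11 ± 0.24, Slc7a11 0.039 ± 0.12 and Slc7a1 -0.11 ± 0.11. The groups overlapped for all 7 members, where 5.02% of all features had groups that did not.

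Single arrays moved these 1 h differences. Without untreated replicate 2, Tfrc had 1.68, Slc3a2 0.70 and Slc2a1 1.15. Without 1 h replicate 2, Tfrc had 0.20, Slc1a5 -0.36 and Slc7a11 -0.022. Slc38a2 had -0.047 without untreated replicate 3 and -0.057 without 1 h replicate 3. Limma called 0 of 7 in each of these fits. The share of all features called in them is not given here, so the count says nothing particular to the members.

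At 2 h, compared with the same untreated arrays, 5 of the 7 members had a higher mean and 2 a lower one, where 48.6% of all features were higher. Limma called 0 of 7, as it called 0% of all features, and 0 of 7 had an unadjusted p under 0.05, against 4.97%. These counts use the brightest probe of each gene. The second Slc38a2 probe, in the fit with every kept probe, had an unadjusted limma p of 0.026 and was not called. The median log2 difference was 0.058 over the members and -0.0066 over all features. Tfrc had 0.67 ± 0.92 (SE, n = 3 arrays per group, limma adjusted p = 0.911), with a 95% interval from -1.45 to 2.79. Slc3a2 had 0.64 ± 0.38, from -0.23 to 1.52, and Slc2a1 0.44 ± 0.43, from -0.54 to 1.43. Slc1a5 had 0.040 ± 0.50, Slc7a11 0.058 ± 0.12, Slc7a1 -0.10 ± 0.11 and the brightest Slc38a2 probe -0.21 ± 0.24. The groups overlapped for all 7 members, where 11.2% of all features had groups that did not.

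Leaving out 2 h replicate 2 moved Tfrc at 2 h to 1.46 and Slc3a2 to 1.05, and leaving out untreated replicate 2 moved Slc2a1 to 0.97 and Slc38a2 to 0.043. Tfrc had 0.23 without untreated replicate 1, Slc3a2 0.36 without 2 h replicate 3, and Slc2a1 0.15 without untreated replicate 3. Slc1a5 ranged from -0.12 to 0.29 and Slc7a11 from -0.061 to 0.14 over the fits that left out 1 array.

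**Figure D3:**
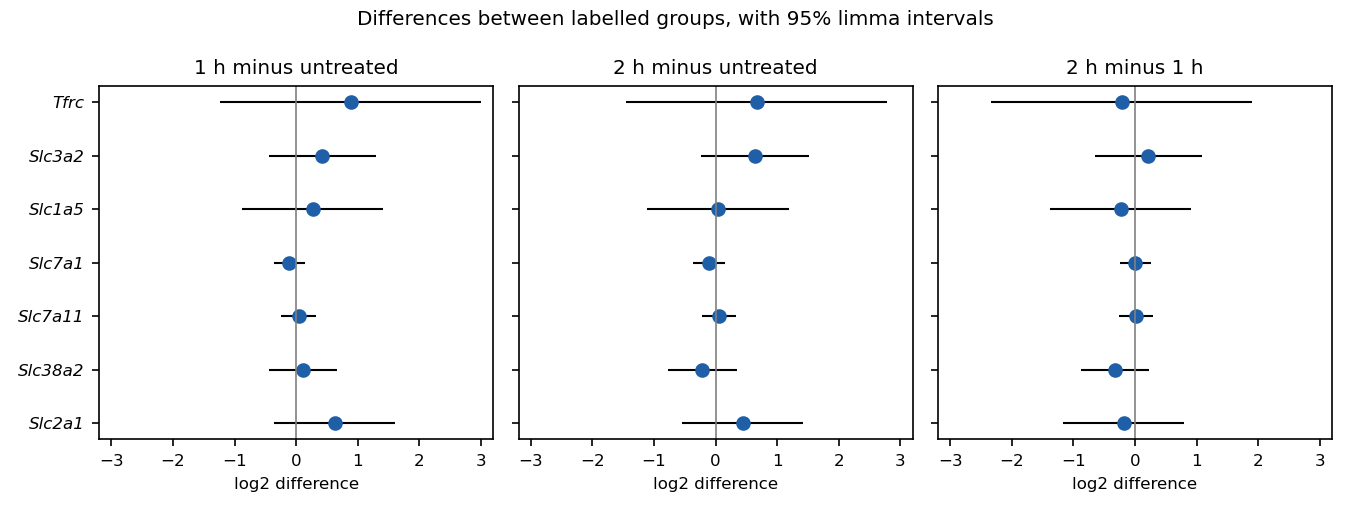
Log2 difference of each measured transporter gene between labelled groups (points) with its 95% interval from the limma fit (lines), for the 3 comparisons. Every interval includes 0, and those of Tfrc are widest, at 1 h from -1.23 to 3.00.

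Between 2 h and 1 h, 3 of the 7 members had a higher mean at 2 h and 4 a lower one, with 48.6% of all features higher. Limma called 0 of 7, as it called 0% of all features, and 0 of 7 had an unadjusted p under 0.05, against 6.84%. Slc38a2 had -0.33 ± 0.24 by its brightest probe (SE, n = 3 arrays per group, limma adjusted p = 0.916) and 0.16 ± 0.19 by its second. Tfrc had -0.21 ± 0.92, Slc1a5 -0.23 ± 0.50, Slc2a1 -0.18 ± 0.43 and Slc3a2 0.22 ± 0.38. Tfrc turned to 0.58 without 2 h replicate 2 and to 0.47 without 1 h replicate 2, and Slc1a5 to 0.40 without 1 h replicate 2. The groups overlapped for all 7, where 11.4% of all features had groups that did not. Limma's moderated F-test for any change across the groups also called 0 of 7, as it called 0% of all features.

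Untreated replicate 2 was above both other untreated arrays for 6 of the 7 members, as for 38% of all features. On 1 h replicate 2, 6 of 7 were above both other 1 h arrays, against 37.2% of all features, and on 2 h replicate 2, 5 of 7 were below both other 2 h arrays, against 40%. Tfrc, Slc3a2, Slc1a5 and Slc2a1 held all of these positions, 4 of 7 against 15.3% of all features. These positions were counted with the values known and carry no test.

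Without the 3 arrays numbered 2, a choice made with earlier results of these data known, limma called 3 of 7 members higher at 1 h (Tfrc, Slc3a2 and Slc2a1), with 7.33% of all features called. At 2 h it called 4 of 7 higher, these and Slc1a5, with 34.8% of all features called. Tfrc then had 0.99 ± 0.13 at 1 h and 2.26 ± 0.13 at 2 h (SE, 2 arrays per group). Slc2a1 had 1.11 ± 0.12 and 1.26 ± 0.12, Slc3a2 0.54 ± 0.15 and 1.33 ± 0.15, and Slc1a5 -0.10 ± 0.15 and 0.46 ± 0.15. Since the arrays left out were picked for their values, these calls are no test of the treatment.

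Of the members' known regulators all 9 were measured and 0 of 9 were called at either time. Myc had 57.0, 798 and 70.0 on the untreated arrays, 840.5, 583 and 816 on those of 1 h and 876, 56.4 and 801 on those of 2 h, lowest on untreated replicates 1 and 3 and 2 h replicate 2, the arrays lowest in Tfrc. On 1 h replicate 2, the array highest in Tfrc and Slc1a5, Myc was the lowest of the 1 h arrays. Atf4 had 2706, 3988 and 2247 on the untreated arrays, 3316, 5075 and 3769.6 on those of 1 h and 4558, 2887 and 5029 on those of 2 h and was highest on 1 h replicate 2. Txnip, whose product promotes removal of GLUT1 from the cell surface, had 2180.1, 218 and 2255 on the untreated arrays, 339, 416 and 298 on those of 1 h and 225, 1807 and 179 on those of 2 h, lowest on the 3 arrays highest in Slc2a1.

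The log2 differences at 1 h and 2 h were 1.83 ± 0.99 and 0.98 ± 0.99 for Myc, 0.46 ± 0.28 and 0.48 ± 0.28 for Atf4, and -1.48 ± 0.99 and -1.19 ± 0.99 for Txnip (SE). Keap1, the gene of the inhibitor of NRF2, had -0.50 ± 0.29 and -0.28 ± 0.29, and Nfe2l2, the NRF2 gene, -0.15 ± 0.18 and -0.015 ± 0.18. The ubiquitin ligase gene Nedd4l had -0.30 ± 0.32 and -0.22 ± 0.32, and Hif1a -0.12 ± 0.16 and -0.22 ± 0.16. The MYC partner gene Max had 0.044 ± 0.19 and 0.092 ± 0.19, and Eif2ak4, an amino acid sensor kinase gene near noise, 0.075 ± 0.088 and 0.16 ± 0.088.

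Of 28 other amino acid transporter genes 17 were measured and 0 were called. At 1 h 12 had a higher mean and 5 a lower one (median log2 difference 0.051), and at 2 h 9 and 8 (median 0.0044). The taurine carrier gene Slc6a6 ranged over 541 to 957, with log2 differences of 0.056 ± 0.19 and -0.26 ± 0.19. Slc38a1, a glutamine carrier gene, ranged over 159.6 to 292, with -0.011 ± 0.20 and 0.30 ± 0.20. The lysosomal peptide and histidine carrier gene Slc15a4 had -0.44 ± 0.24 and -0.47 ± 0.24, and Slc38a9, a lysosomal arginine sensor gene, -0.21 ± 0.37 and -0.36 ± 0.37.

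The array labelled 1 h replicate 2 was the highest of all 9 for 7 of these 17 genes, against 18.3% of all features. Named after their values were seen, 3 of them were bright on that array and dim on the other 8. Slc1a4, a carrier gene for alanine, serine and cysteine, had 236 there and at most 13.4 elsewhere. The glycine carrier gene Slc6a9 had 239 and at most 20.9, and Slc7a3, of the same arginine and lysine carriers as Slc7a1, 176 and at most 16.2. Slc7a1 itself had 11.8 on that array.

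**Figure D4:**
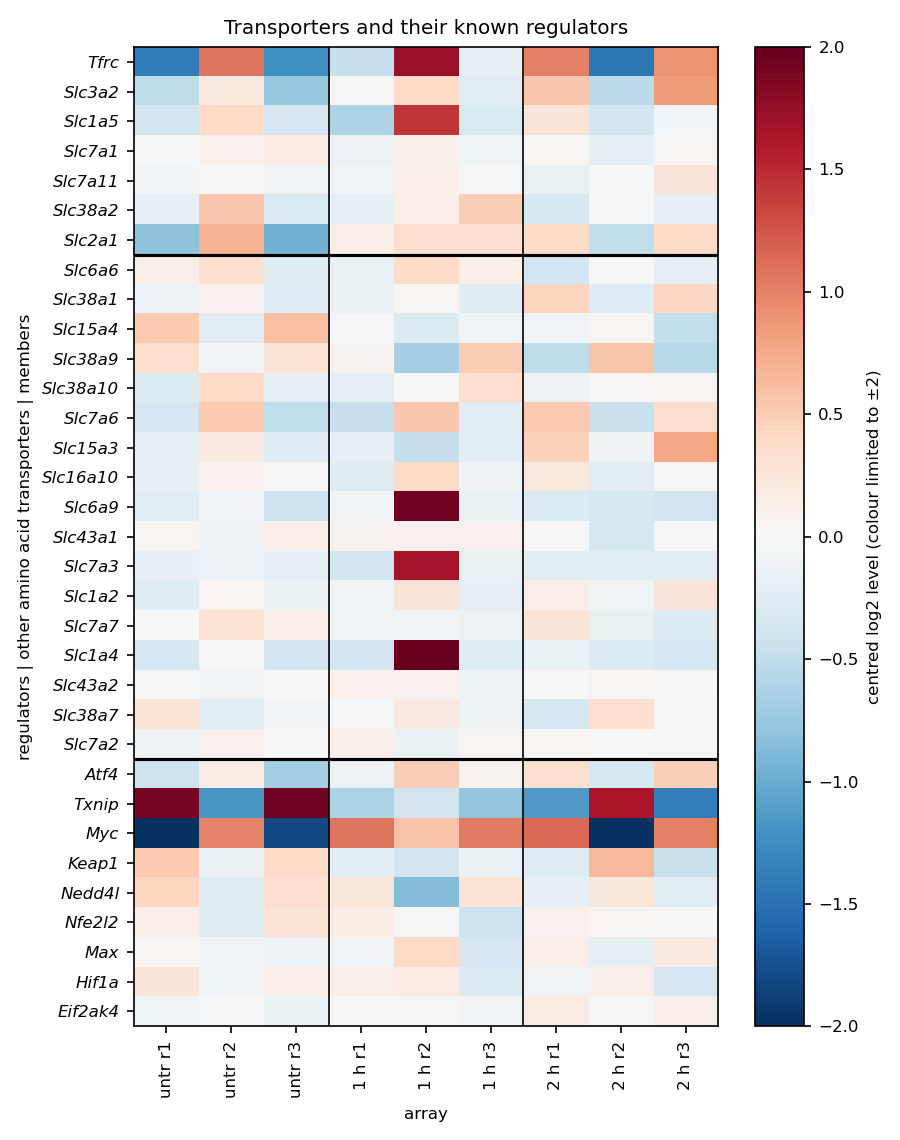
Centred log2(intensity + 50) level (colour, limited to ±2) of the 7 measured members, 17 other amino acid transporter genes and 9 regulators on each of the 9 arrays. Tfrc, Slc1a5, Slc1a4, Slc6a9 and Slc7a3 are highest on 1 h replicate 2, and Txnip is lowest on the 3 arrays highest in Slc2a1.

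Of 18 iron handling genes 17 were measured and 0 were called, with 6 higher and 11 lower at 1 h and 10 higher and 7 lower at 2 h. The ferritin light chain gene Ftl1 had 4117, 3657 and 4499.6 on the untreated arrays, 3687, 3454 and 4481 on those of 1 h and 5473, 5525 and 5857 on those of 2 h, so each 2 h array lay above every other array. Its log2 difference at 2 h was 0.46 ± 0.12 from untreated (SE, limma adjusted p = 0.825) and 0.54 ± 0.12 from 1 h (adjusted p = 0.421), neither called. The ferritin heavy chain gene Fth1 ranged over 8067 to 15111, lowest on 1 h replicate 2 and highest on 2 h replicate 2, with -0.32 ± 0.21 and -0.089 ± 0.21. On untreated replicate 2, where Tfrc was 5.68 times the mean of its neighbours, Ftl1 was 0.849 and Fth1 0.768 times theirs. On 1 h replicate 2 these ratios were 4.28 for Tfrc, 0.846 for Ftl1 and 0.631 for Fth1. The other 2 h arrays averaged 5.77 times 2 h replicate 2 for Tfrc, 1.03 times for Ftl1 and 0.786 times for Fth1. The iron chaperone genes had 0.23 ± 0.21 and 0.16 ± 0.21 (Pcbp1) and -0.035 ± 0.13 and -0.28 ± 0.13 (Pcbp2).

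Of 11 other glucose and lactate carrier genes 7 were measured and 0 were called, with 3 higher and 4 lower at 1 h and 1 higher and 6 lower at 2 h. Slc2a6, a lysosomal hexose carrier gene, had 2889, 861 and 2765 on the untreated arrays, 1471, 1041 and 1454 on those of 1 h and 743, 2748 and 782 on those of 2 h, and was highest on the 3 arrays lowest in Slc2a1. Its log2 differences were -0.53 ± 0.58 and -0.68 ± 0.58. Slc2a3, the GLUT3 gene, ranged over 320.3 to 628, with -0.14 ± 0.22 and -0.099 ± 0.22, while Slc2a8 and Slc2a9 reached at most 23.4 and 23.9.

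The kinase complex mTORC1 responds to the amino acids that such carriers bring in. Of 27 genes of its nutrient sensing 25 were measured and 0 were called, with 15 higher and 10 lower at 1 h and 7 higher and 18 lower at 2 h. Rheb, the gene of the GTPase that activates the complex, had 719, 1949.8 and 637 on the untreated arrays, 2149, 1566 and 2523 on those of 1 h and 1832, 704 and 2239.6 on those of 2 h, lowest on the 3 arrays lowest in Tfrc. Its log2 differences were 1.04 ± 0.51 and 0.54 ± 0.51. At 2 h the Rag GTPase gene Rragc had -0.44 ± 0.13 (SE, limma adjusted p = 0.888), Flcn, whose product acts on Rag GTPases, -0.48 ± 0.28, and Lamtor4, of their lysosomal anchor, -0.39 ± 0.31.

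Cystine imported through Slc7a11 feeds glutathione synthesis. Of 10 genes of glutathione and thioredoxin metabolism 8 were measured and 0 were called, with 6 higher at 1 h and 5 at 2 h. The peroxidase gene Gpx1 ranged over 3753 to 5333 and Gpx4, which reduces lipid peroxides, over 553 to 2137. Gclm, a subunit gene of the first enzyme of glutathione synthesis, ranged over 73.3 to 112 and the thioredoxin reductase gene Txnrd1 over 22.3 to 87.1.

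Likeness to a member was measured as the root mean square difference of centred log2 profiles over the 9 arrays, for the 4 members that spanned over 1. Nearest to Tfrc among 11097 named genes were Fam83g (0.18), the tRNA methyltransferase subunit gene Trmt61a (0.19) and the mitochondrial import gene Chchd4 (0.20), against a median of 1.15 over all genes. Nearest to Slc1a5 were the tRNA exporter gene Xpot (0.061), the arginine methyltransferase gene Prmt3 (0.098) and the purine synthesis gene Gart (0.12), against a median of 0.62. Nearest to Slc2a1 were Pik3ap1, an adaptor gene between the antigen receptor and PI3 kinase (0.12), Btaf1 (0.13) and the splicing factor gene Prpf3 (0.14), against 0.58. Nearest to Slc3a2 were Fastkd3 (0.12), Ubtd2 (0.13) and the noncoding RNA gene Dancr (0.13), against 0.54. Genes picked as nearest lie below such a median by that choice, so the gap is no test of likeness. Among the 4 members themselves, Slc3a2 and Slc2a1 differed by 0.32, and Tfrc differed from Slc2a1 by 0.72, from Slc3a2 by 0.73 and from Slc1a5 by 0.74.

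Erythroid precursors carry much transferrin receptor, so their markers are given beside Tfrc. Of 9 erythroid markers 5 were measured, with a summed intensity of 89.3 to 2416 untreated, 99.4 to 2683 at 1 h and 248 to 2661 at 2 h. The hemoglobin gene Hba-a1 was highest on 1 h replicate 3 (2644), 2 h replicate 1 (2600.2) and untreated replicate 3 (2358), where Tfrc had 1018, 2357 and 463. On 1 h replicate 2 and untreated replicate 2, the arrays highest in Tfrc, Hba-a1 had 67.4 and 65.9. Epor, Klf1, Alas2 and Slc4a1 reached at most 36.7, 24.4, 21.4 and 15.8.

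Of the 6 measured B cell markers, Cd79b, Ms4a1, Cd22, Blk and Pax5 were lowest on 1 h replicate 2 and Cd74 was second highest there (24477), and together they summed to 33322 to 35971 untreated, 29743 to 34691 at 1 h and 29190.5 to 35587 at 2 h. All 5 neutrophil markers were measured and summed to 886 to 5146, 711 to 4091 and 1045 to 3719 in that order. Of 7 macrophage and monocyte markers 5 were measured, with 170.1 to 698, 161 to 516 and 304 to 477, and of 6 T cell markers 3, with 68.3 to 91.0, 24.9 to 96.5 and 54.3 to 76.4. The B cell sum was lowest on 2 h replicate 3. Those of the neutrophil, macrophage and monocyte, and T cell markers were lowest on 1 h replicate 2, but not every gene in them was. Cd3e, Cd3d, Lyz2, Csf1r, C1qb, Camp, Ngp and Ltf were lowest on other arrays, while Thy1, Adgre1, Itgam, S100a8 and S100a9 were lowest on 1 h replicate 2. The NK cell marker Nkg7, 1 measured of 4, was highest on that array (83.8, against 22.9 to 41.6 untreated and 18.3 to 19.7 at 2 h), as was the plasma cell marker Jchain, 1 of 4 (10.1). The 2 of 4 platelet markers measured summed to 6.47 to 22.9, 5.26 to 8.34 and 17.9 to 40.7. The part of other cells in the transporter values was not tested. In bulk RNA, fewer cells of a type and less RNA per cell cannot be told apart.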

How the data were processed

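The authors deposited 1 table of linear intensity values per probe for 9 arrays, which were background-subtracted and normalized between arrays as judged from values below 0 (31.8%) and column medians of 3.76 to 3.77. For the software, the sources used here give no name. A second table, not normalized, has 9 columns whose names match no label and was not used, so the raw values could not be processed afresh. Probes were named through the platform annotation (34885 with 1 symbol, 18 with several, 10378 with none). The noise threshold of an array was the upper 0.05 tail of its values below 0 mirrored at 0. Probes above it on at least 3 arrays were kept (20983 of 45281), and 19088 to 19112 probes were above it per array. The probe with the highest mean stood for a gene, which left 14640 features (11104 named genes and 3536 unnamed probes).

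The deposited intensities were set to log2(intensity + 50) and tested with limma 3.58.1 in R 4.3.3 (lmFit, eBayes, group means, 6 residual degrees of freedom), with Benjamini-Hochberg adjustment and a threshold of 0.05. The number of arrays limits the precision. On data simulated for 2 h against untreated with 14640 features, 62.8% of changes of 2-fold and 91% of changes of 4-fold in intensity + 50 were recovered. In a dim gene such a change needs a larger fold change of the intensity itself, so the shares overstate recovery there. The simulated deviations were independent between features, while those of the real arrays were shared by many features. The shares are averages over features, whose median residual SD was 0.20. They do not carry over to a member as variable as Tfrc, whose differences had an SE of 0.92. Same-numbered arrays had deviations that correlated from -0.79 to 0.57 and differently numbered arrays of other groups from -0.69 to 0.80, so the numbers were not used to pair arrays. Named genes are all members, the up to 4 brightest of each list, all measured regulators, and the 3 genes nearest in profile to each member spanning over 1. Members and lists were chosen with earlier results of these data known. Alternatives changed the offset, normalization, filter, probe, variance model, weights and arrays.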

Additional observations from a re-analysis of the deposited data

How the results depend on the processing

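Limma called 0 of 7 members in each comparison with an offset of 16 or 100, quantile normalization, no filter, only probes above noise on all arrays (Slc3a2 and Slc7a1 then drop out), the mean of a gene's probes, trend and robust variances, only the 6 arrays compared, or any 1 array left out (0 to 0). The fit with the replicate number as a block also called 0 at 1 h, 0 at 2 h and 0 between them, and the numbers do not pair the arrays. With either offset, quantile normalization or no filter, 0% of all features were called too. For the other alternatives with 0 members called, the share of all features is not given here. With limma's array weights, 3 of 7 were called at 2 h (Tfrc 1.99, Slc3a2 1.09, Slc2a1 1.06), with 33.5% of all features called. The F-test called 3 (23.6%). The weights, estimated from the same values, were 0.34, 0.26 and 0.31 for replicate 2 of untreated, 1 h and 2 h. For the other arrays they were 1.33 to 4.11. This fit thus largely set aside the arrays numbered 2, so its calls are likewise no test of the treatment. Leaving out the 3 arrays numbered 2, chosen after seeing the data, gave 3 at 1 h, 4 at 2 h, 3 between 2 h and 1 h (25.7% of all features) and 4 by the F-test (35.1%).

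Log2 differences that turned sign were as follows, and the cause was not tested. Without the arrays numbered 2, Slc1a5 had -0.10 and Slc7a11 -0.0042 at 1 h, and between 2 h and 1 h Tfrc had 1.26, Slc1a5 0.56 and Slc2a1 0.15. With array weights, Slc7a1 had 0.00499 at 2 h, and between 2 h and 1 h Tfrc had 0.92, Slc1a5 0.40 and Slc2a1 0.074. With the mean of probes, Slc38a2 had 0.051 at 2 h and Slc7a11 -0.024 between 2 h and 1 h. By other probes, chosen after seeing the data, Slc1a5 had -0.078 at 2 h and Slc7a11 -0.066 between 2 h and 1 h. The second Slc38a2 probe had 0.51 at 2 h and 0.16 between 2 h and 1 h, with 0.36 at 1 h. The dimmest kept Slc38a2 probe had -0.11 at 1 h.

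With 1 array left out, the 1 h, 2 h and 2 h against 1 h differences ranged from 0.20 to 1.68, 0.23 to 1.46 and -0.64 to 0.58 for Tfrc, from 0.22 to 0.70, 0.36 to 1.05 and -0.064 to 0.62 for Slc3a2, and from 0.32 to 1.15, 0.15 to 0.97 and -0.33 to 0.11 for Slc2a1. The ranges were -0.36 to 0.66, -0.12 to 0.29 and -0.62 to 0.40 for Slc1a5 and -0.057 to 0.37, -0.37 to 0.043 and -0.49 to -0.16 for Slc38a2. For the dim genes they were -0.18 to -0.065, -0.15 to -0.022 and -0.036 to 0.089 (Slc7a1) and -0.022 to 0.078, -0.061 to 0.14 and -0.10 to 0.11 (Slc7a11), where signal over noise limits what can be seen.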

Other observations

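Slc7a6, an amino acid exchanger gene that pairs with CD98hc and was named after its values were seen, had 24.4, 85.1 and 17.0 on the untreated arrays, 18.3, 86.5 and 30.7 on those of 1 h and 84.1, 19.1 and 69.1 on those of 2 h. Sesn2, named likewise, the gene of a leucine sensor of the mTORC1 pathway, had 18.0, 27.4 and 16.7 on the untreated arrays, 12.7, 84.4 and 42.6 on those of 1 h and 7.28, 21.9 and 10.7 on those of 2 h.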
